A study of Mus musculus with 9 samples.

Results

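The 9 keratin genes described here belong to the inner root sheath of the hair follicle and the companion layer beside it. They were chosen by name, as Krt25, Krt26, Krt27, Krt28, Krt71, Krt72, Krt73, Krt74 and Krt75, from the 34637 genes of the FPKM table, and all 9 were found there and joined to the count table by gene identifier. All 9 passed the filter on low counts and are among the 20817 genes tested. The RNA came from the back skin of male C57BL/6 mice aged 6 to 8 weeks, whose shaved backs were painted with 1% DNCB on day 1 and with 0.5% DNCB repeatedly from day 4 to day 21. DNCB is a small reactive molecule that raises a contact allergy resembling atopic dermatitis. The 4 Model libraries came from mice given water. The 5 FJDHF-M libraries came from mice fed the herbal formulation FJDHF at its medium dose, daily after day 7 until day 28. Mice without DNCB were not analysed here, so both groups carry the dermatitis. The columns of the deposited tables carry codes that the labels do not explain. From the number of samples that the labels give each group, codes beginning with MR (5 columns) were assigned to FJDHF-M and those beginning with MXL (4 columns) to Model, and every direction given below rests on that assignment. Nothing shows whether codes such as MR3_4 or MXL12 mark pooled mice, so p-values measure the spread between libraries.

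A growing hair is built in concentric layers. The inner root sheath is a rigid tube that surrounds and moulds the young hair shaft and is shed before the hair leaves the skin, and the companion layer is a single row of cells between that tube and the outer root sheath. Keratins form filaments from pairs of a type I and a type II chain, so a layer needs both. Krt25, Krt26, Krt27 and Krt28 are the type I keratin genes of the inner root sheath. Krt71, Krt72, Krt73 and Krt74 are its type II keratin genes, of which Krt74 is annotated as a pseudogene in the mouse. Krt75 is the type II keratin gene of the companion layer. Inner root sheath keratins are made by follicles in their growth phase, and mutations of Krt25, Krt27, Krt71 and Krt75 in mice give wavy or defective coats.

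The genes lie in 2 clusters in GRCm38, all on the minus strand. The type I genes fill chr11:99315516-99374903, from Krt25 to Krt28, with Krt24 before them and Krt10 after them. The type II genes spread over chr15:101563345-101802346 in the order Krt75, Krt71, Krt74, Krt72 and Krt73, with Krt90 before them and Krt2 after them. Krt5, Krt6a and Krt6b of the basal epidermis and the outer root sheath lie between Krt75 and Krt71. Krt74 is annotated in GENCODE as a transcribed unitary pseudogene, a gene that has lost its reading frame in the mouse, and the other 8 as protein coding. No exon of the first 8 genes overlapped an exon on the other strand. Krt75 overlapped the antisense gene Gm44460, which had 0 counts in all 9 libraries together.

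RefSeq promoter windows from 250 bases before to 50 bases after the start were matched for 8 of the 9 genes, all but Krt74. The 250 bases before the start are shown for the 4 genes whose window held AGATAA, and for Krt75, whose window held none of the exact letters searched. AGATAA is a form of the sequence that GATA factors bind, and other forms of it were not searched. Capitals mark AGATAA and the TATA box letters TATAAA, and the build is GRCm38.p6.
Krt25, chr11:99322952-99323201, minus strand: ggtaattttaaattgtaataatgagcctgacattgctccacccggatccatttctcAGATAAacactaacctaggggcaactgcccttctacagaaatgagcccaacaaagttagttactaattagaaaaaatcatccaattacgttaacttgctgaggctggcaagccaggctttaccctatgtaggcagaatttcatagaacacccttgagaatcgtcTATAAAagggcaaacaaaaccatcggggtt
Krt27, chr11:99351119-99351368, minus strand: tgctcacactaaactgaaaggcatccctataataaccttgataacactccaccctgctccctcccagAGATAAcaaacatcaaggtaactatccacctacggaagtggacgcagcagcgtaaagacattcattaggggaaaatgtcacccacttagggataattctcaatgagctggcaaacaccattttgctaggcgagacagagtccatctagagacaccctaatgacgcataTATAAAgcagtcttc
Krt71, chr15:101743098-101743347, minus strand: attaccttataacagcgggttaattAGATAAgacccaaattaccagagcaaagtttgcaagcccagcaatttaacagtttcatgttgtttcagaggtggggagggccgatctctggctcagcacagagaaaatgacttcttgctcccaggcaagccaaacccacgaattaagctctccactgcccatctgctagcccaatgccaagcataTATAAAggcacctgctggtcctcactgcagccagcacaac
Krt73, chr15:101802361-101802610, minus strand: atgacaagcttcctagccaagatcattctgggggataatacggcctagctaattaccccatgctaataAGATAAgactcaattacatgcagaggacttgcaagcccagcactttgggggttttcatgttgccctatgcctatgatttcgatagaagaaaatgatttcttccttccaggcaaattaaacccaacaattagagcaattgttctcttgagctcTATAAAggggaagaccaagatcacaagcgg
Krt75, chr15:101573905-101574154, minus strand: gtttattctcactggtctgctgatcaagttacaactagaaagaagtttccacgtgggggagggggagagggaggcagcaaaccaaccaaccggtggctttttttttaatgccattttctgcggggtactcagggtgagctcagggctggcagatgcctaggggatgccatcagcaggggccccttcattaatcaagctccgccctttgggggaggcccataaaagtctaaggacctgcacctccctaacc

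TATAAA was found on either strand in 7 of the 8 windows, against 13.6% of all 32851 promoter windows of the same length. In 6 of the 8 it lay on the gene's own strand within 50 bases before the start, as it did in 2.63% of all windows and in 5 of the 9 hair shaft keratin windows matched. AGATAA was found on either strand in 4 of the 8 windows (Krt25, Krt27, Krt71 and Krt73), in 11.2% of all windows and in 0 of the 9 hair shaft keratin windows. Counted from the RefSeq start, the 4 matches began at -194, -183, -225 and -182 in the same order, and all 4 lay on the gene's own strand. In Krt27, Krt71 and Krt73 that start differs from the one in the deposited annotation, such as 99351118 against 99351104 for Krt27. The LEF/TCF letters CTTTGAA were found after the start of Krt28 only, against 5 of the 9 hair shaft keratin windows and 5.14% of all windows. CTTTGAT and the AP-1 letters TGAGTCA were in none of the 8 windows, and in 3.73% and 5.20% of all windows. All motifs were searched on both strands, and no motif overlapped another. Krt71 and Krt73, near each other on the chromosome, shared a run of 14 bases, ttgcaagcccagca, which begins at -196 in Krt71 and at -154 in Krt73, the longest run shared by any pair of the 8. Krt72 held TATAAA only on the opposite strand. Only exact letters were searched, so a variant of the TATA box in Krt72 or Krt75 would not be counted. These matches are descriptions of letters in a window and were not tied to any measured binding.

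Total counts lay between 74648669 and 79474215 per library, and the biological coefficient of variation over all genes tested was 0.477. The keratins were well measured at that depth, with 2400 to 274593 counts per library for the 8 genes other than Krt74, and 96 to 1119 for Krt74. Of the runs of 50 bases in the annotated transcripts, 10.9% of Krt25 and 11.1% of Krt27 also occurred in another gene (each other, Krt28 or Krt15), and the share was 0.155% to 2.49% for the other 7 genes. No run of 150 bases, the length of 1 read, was shared for any of the 9.

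Krt71 was the most abundant of the 9 keratins in every library, and Krt74 the least abundant. Levels are given as FPKM, which the authors scaled for transcript length and depth, so that genes can be compared. Krt71, which pairs with type I chains throughout the inner root sheath, was at 866, 432, 885 and 378 FPKM in the Model libraries MXL1, MXL12, MXL3_4 and MXL_3, and at 270, 1544, 457, 1252 and 207 FPKM in the FJDHF-M libraries MR1, MR3, MR3_4, MR4_5 and MR5. The highest and the lowest library both belonged to FJDHF-M, and the Model libraries lay inside that range. Values below keep this order of libraries. Of the other type II genes, Krt72, restricted to the cuticle of the inner root sheath, was at 86.6, 60.9, 154 and 34.6 FPKM in Model and at 29.2, 217, 54.6, 141 and 28.7 FPKM in FJDHF-M. Krt73, also a cuticle keratin, was at 108, 60.8, 154 and 43.8 FPKM in Model and at 38.5, 220, 95.9, 146 and 23.4 FPKM in FJDHF-M. In both genes MR3 was highest and MR5 lowest, and the groups overlapped. Krt74 was at 7.20, 1.38, 5.12 and 1.93 FPKM in Model and at 1.5, 8.34, 0.725, 5.18 and 1.13 FPKM in FJDHF-M, again with both extremes in FJDHF-M but with MR3_4 as the lowest library.

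The type I keratins ran through the same range of libraries. Krt25 was at 512, 215, 393 and 142 FPKM in Model and at 103, 733, 193, 431 and 108 FPKM in FJDHF-M. Krt27 was at 459, 153, 303 and 141 FPKM in Model and at 119, 724, 224, 372 and 66.0 FPKM in FJDHF-M. These are the main type I chains of the inner root sheath, and MR3 held the highest level of both. Krt28 was at 49.9, 55.7, 124 and 26.2 FPKM in Model and at 18.4, 150, 64.4, 96.2 and 29.5 FPKM in FJDHF-M. Krt26, a cuticle keratin, was at 50.7, 31.3, 70.2 and 17.5 FPKM in Model and at 15.4, 87.3, 9.86, 60.8 and 15.7 FPKM in FJDHF-M. Krt26 differed from the other 3 in MR3_4, where it had its lowest level of the 9 libraries while Krt25, Krt27 and Krt28 lay in the middle of theirs. Krt75, the companion layer keratin, was at 86.5, 37.2, 78.4 and 19.0 FPKM in Model and at 15.2, 90.6, 11.3, 54.1 and 25.6 FPKM in FJDHF-M, with MR3 highest and MR3_4 lowest.

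**Figure D1:**
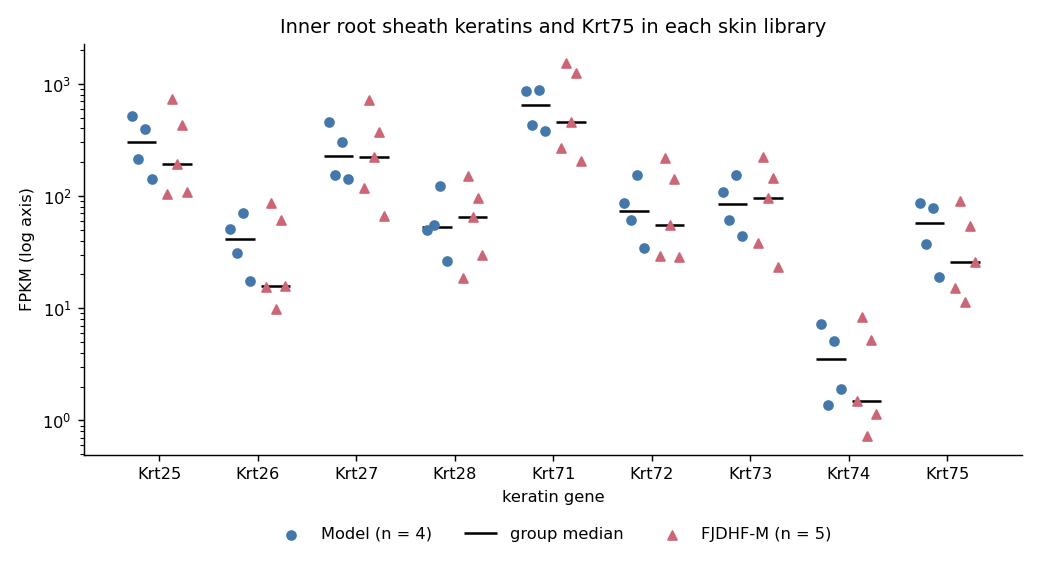
Levels of the 9 keratins in FPKM on a log axis, with 1 circle for each of the 4 Model libraries, 1 triangle for each of the 5 FJDHF-M libraries and a bar for each group's median. The triangles reach above and below the circles in every gene, and Krt71 spans 207 to 1544 FPKM in FJDHF-M and 378 to 885 in Model.

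Within a library the order of the levels was fixed at its top and bottom and varied between. Krt71 exceeded Krt27 in 9 of 9 libraries, by a median of 2.68 times and a range of 1.88 to 3.36 times. Krt27 and Krt25 did not differ beyond their spread, since Krt27 was higher in 2 of 9 libraries and the ratio ran from 0.611 to 1.16. Krt25 exceeded Krt73 in 9 of 9 libraries, by a median of 3.24 times. Krt73 and Krt72, Krt72 and Krt28, and Krt75 and Krt26 traded places, with the first of each pair higher in 7 of 9 libraries. Krt28 exceeded Krt75 in 8 of 9 libraries, with a ratio between 0.577 and 5.70. Krt26 exceeded Krt74 in 9 of 9 libraries, by a median of 11.7 times. The pseudogene lay far below every other gene of the order.

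The spread between libraries was wide and lay inside the groups. The highest library exceeded the lowest 7.10-fold in Krt25, 8.85-fold in Krt26, 11.0-fold in Krt27, 8.15-fold in Krt28, 7.45-fold in Krt71, 7.57-fold in Krt72, 9.44-fold in Krt73, 11.5-fold in Krt74 and 8.01-fold in Krt75. MR3 was the highest library for all 9 genes. MR5 was lowest for 4 genes, MR3_4 for 3 and MR1 for 2, so both ends of every gene's range were FJDHF-M libraries. MR3 was also the highest library for 9 of 14 other inner root sheath genes, 12 of 14 hair shaft keratins and 7 of 10 melanocyte genes. It was highest for 3 of 20 hair cycle genes, and for 0 of 8 outer root sheath and bulge keratins. The same held for 0 of 6 keratins of the epidermis between follicles. The lowest library was MXL_3, of Model, for 8 of the 14 other inner root sheath genes, and MR5 for 10 of the 14 hair shaft keratins. The summed FPKM of the 8 inner root sheath keratins was 2139, 1010, 2089 and 785 in Model and 595, 3684, 1099, 2504 and 480 in FJDHF-M. In whole skin RNA, fewer inner root sheath cells and less keratin RNA per cell cannot be told apart.

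The comparison of FJDHF-M with Model asks whether the formulation changed the skin's gene expression after DNCB. None of the 9 keratins passed an adjusted p under 0.05 with a fold change of at least 2 in edgeR's quasi-likelihood test, nor did any gene, so the background was 0% of 20817 genes. With the unadjusted p in place of the adjusted, 0 of the 9 keratins and 189 of all genes (0.908%) passed. The smallest unadjusted p of a keratin was 0.408 and the adjusted p was 1.0 for all 9. The CPM ranges of the groups did not overlap in 0 of the 9 keratins and in 0.514% of all genes tested. DESeq2's Wald test called 2 genes of all, and none of them was among the 9.

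The fitted differences were small beside their errors. The log2 fold change of FJDHF-M against Model was 0.18 with an SE of 0.58 for Krt71, 0.16 with an SE of 0.62 for Krt27 and 0.16 with an SE of 0.60 for Krt73. It was 0.13 for Krt28, 0.12 for Krt72, -0.04 for Krt25, -0.21 for Krt26 and -0.25 for Krt74, with SEs between 0.60 and 0.74. Krt75 had the largest difference, -0.53 with an SE of 0.61, from 55.3 ± 32.4 FPKM (SD, n = 4) in Model and 39.4 ± 33.2 FPKM (SD, n = 5) in FJDHF-M. For Krt71 the means were 640 ± 272 FPKM in Model and 746 ± 611 FPKM in FJDHF-M. Fitted values 2 SEs on either side ran from -0.98 to 1.34 for Krt71 and from -1.76 to 0.70 for Krt75. The median log2 fold change was 0.12 over the 9 keratins and -0.03 over all genes tested. Its sign depended on the scale, since the group difference in mean log2(CPM + 0.5) was negative for all 9 keratins, and with limma on log2(FPKM + 1) 8 of the 9 were negative with a median of -0.12. An exact two-sided permutation test of log2(CPM + 0.5), 1 gene at a time, gave raw p-values from 0.365 for Krt75 to 0.984 for Krt28, where the smallest p that 4 against 5 libraries allow is 0.00794.

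The signs of these differences turned with single libraries. Without MR3 all 9 log2 fold changes were negative, from -0.27 for Krt71 to -1.10 for Krt75, and the smallest unadjusted p in edgeR was 0.0814. Negative values were also found in 8 of the 9 without MXL_3, and in 6 of the 9 without MR4_5 or without MXL12. Positive values were found in 8 of the 9 without MR3_4, and in 7 of the 9 without MXL1 or without MXL3_4. They were found in 6 of the 9 without MR1 or without MR5. The largest was 0.68 for Krt28, without MXL3_4. Krt75 kept a negative difference in each of these fits, and in none of them did a keratin reach an unadjusted p under 0.05.

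**Figure D2:**
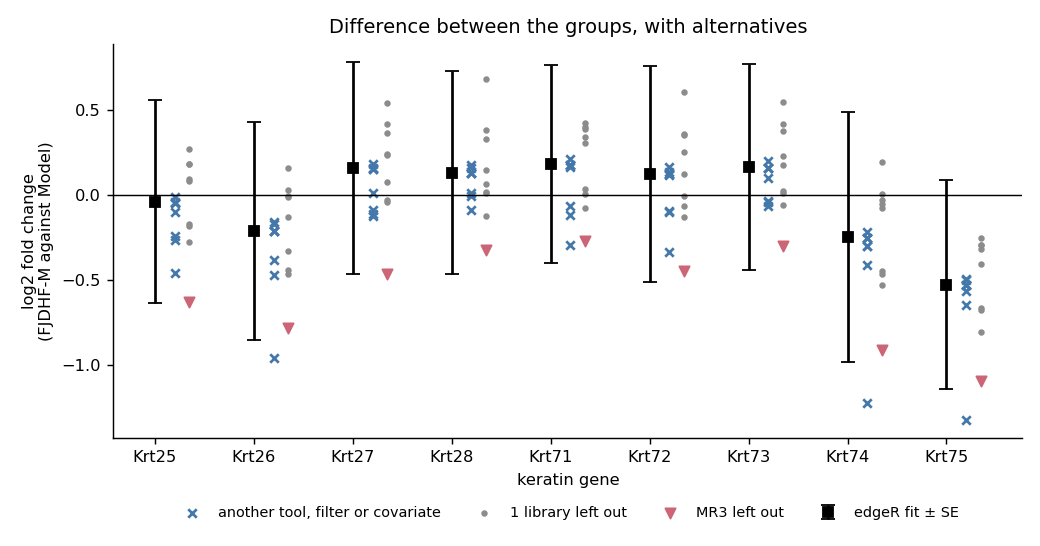
Log2 fold change of FJDHF-M against Model for each keratin, as the edgeR fit with its SE (squares), other tools, filters and covariates (crosses), fits without 1 library (dots) and the fit without MR3 (triangles). The SE bars of all 9 genes cross 0, and the triangles lie below 0 throughout, from -0.27 to -1.10.

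Across the 9 libraries the keratins moved together. Over the 36 pairs of genes, Pearson's r of log2(CPM + 0.5) was 0.608 to 0.968 with a median of 0.869, and Spearman's rho was 0.450 to 0.983. The points of each pair come from the same 9 libraries, and they share depth and scaling. Without the 2 libraries farthest from the median of the first gene, r was 0.446 to 0.992 with a median of 0.878. Krt25 followed the mean of the other 8 genes most closely, with r = 0.981, and Krt75 and Krt28 least, with 0.847 each. Krt71 and Krt73, of which Krt71 is the layer-wide chain, gave r = 0.960, and Krt25 and Krt71, on different chromosomes, gave r = 0.968.

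MR3_4 separated 3 of the genes from the other 6. Relative to each gene's own mean over the libraries, Krt26, Krt74 and Krt75 were at their lowest there, and no other keratin was. This grouping was made after the values were seen. Within the 3, r was 0.911 to 0.960, within the other 6 it was 0.788 to 0.968, and between the sets it was 0.608 to 0.892. Without MR3_4 the values between the sets were 0.767 to 0.993 with a median of 0.930, so the separation rested on that library. None of the 14 other inner root sheath genes and 2 of the 14 hair shaft keratins had their lowest level in MR3_4. In the same library 9 of 10 adipocyte genes had their highest level, and its mean adipocyte level of 8.10 on the log2 scale compared with 6.06 to 7.47 in the other 8 libraries. The part of this in the keratin levels was not tested.

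**Figure D3:**
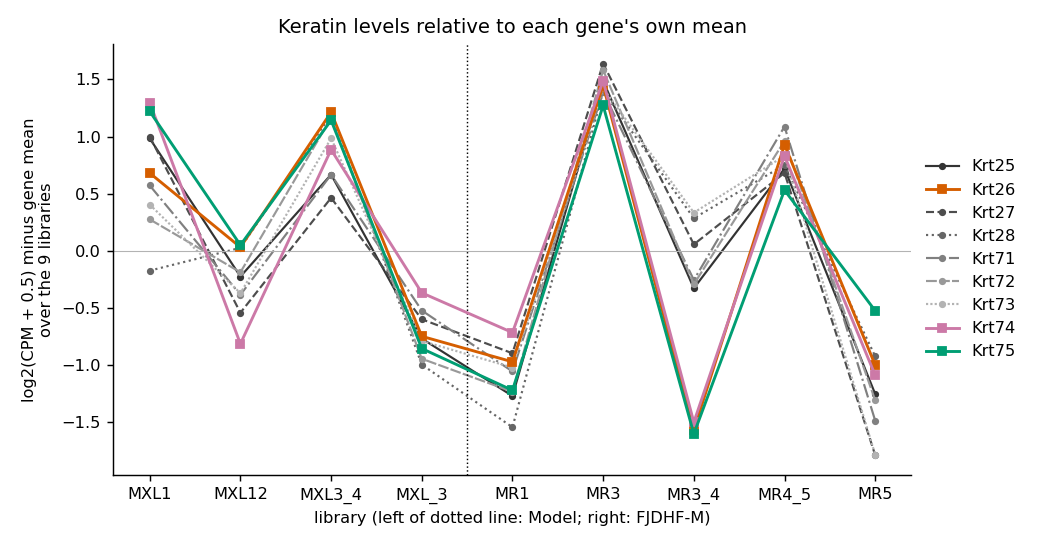
Level of each keratin in each library as log2(CPM + 0.5) minus the gene's mean over the 9 libraries, with Model left of the dotted line and FJDHF-M right of it. All 9 lines peak in MR3, between 1.27 and 1.64, and Krt26, Krt74 and Krt75 (coloured squares) fall below the others in MR3_4, to a lowest value of -1.61.

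The make-up of the inner root sheath keratin RNA varied less than its amount. Krt71 made up 40.5% to 49.98% of the summed FPKM of the 8 genes, a 1.23-fold range. The sum itself ran from 480 to 3684 FPKM. Krt71 is a large part of that sum, which by itself narrows the range of its share. Krt25 made up 17.2% to 23.9% and Krt27 13.8% to 21.5%. Krt28 made up 2.34% to 6.16%, Krt72 4.05% to 7.37% and Krt73 4.87% to 8.73%. The 2 minor components were the least even, with Krt26 at 0.898% to 3.36% and Krt74 at 0.0660% to 0.337%, both lowest in MR3_4. Those are ranges of 3.7-fold and 5.1-fold. The groups overlapped in all 8 shares.

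The balance of the chain types was also similar between the groups. The ratio of summed type I to summed type II FPKM was 1.00, 0.818, 0.743 and 0.712 in Model and 0.754, 0.851, 0.807, 0.622 and 0.842 in FJDHF-M. All but 1 library had more type II than type I RNA per length, the exception being MXL1 with its ratio of 1.00. Krt75 per summed inner root sheath keratin was 0.0404, 0.0368, 0.0376 and 0.0242 in Model and 0.0256, 0.0246, 0.0103, 0.0216 and 0.0535 in FJDHF-M. Its highest ratio was in MR5 and its lowest in MR3_4, and the groups overlapped. On the log2 scale the FJDHF-M mean of this ratio minus the Model mean was -0.53, beside SDs of 0.85 in FJDHF-M and 0.33 in Model.

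**Figure D4:**
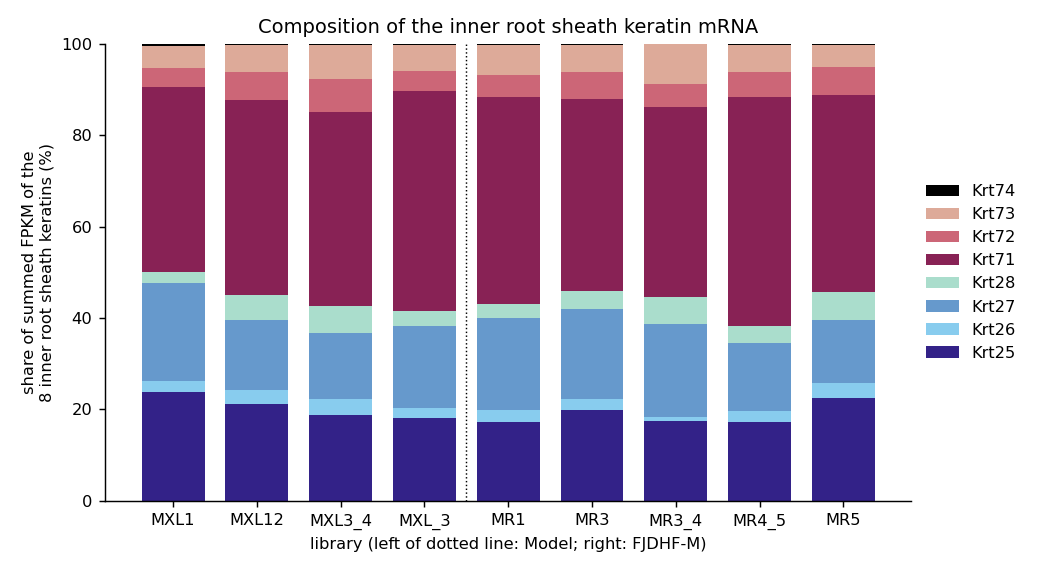
Share of each of the 8 inner root sheath keratins in their summed FPKM, in percent, as 1 stacked bar a library, with Model left of the dotted line and FJDHF-M right of it. Krt71 fills 40.5% to 49.98% of every bar, and Krt26 is thinnest in MR3_4 at 0.898%.

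Other genes listed for the inner root sheath followed the keratins to differing degrees. Of the 14, 4 had an r of at least 0.9 with the mean of the 9 keratins, as did 0.466% of all 20808 other genes tested. The 14 genes were listed by name, and whether each is restricted to the sheath was not tested. This list held 14 genes, among them Tchh and Tchhl1, which encode trichohyalin and a related protein of the sheath's granules, the enzymes Padi1, Padi3, Tgm1 and Tgm3 that modify and crosslink such proteins, and the regulators Gata3, Cux1, Foxn1, Dlx3, Msx2, Hoxc13, Lef1 and Prdm1. All 14 were tested, 8 were higher and 6 lower in FJDHF-M, none had an unadjusted p under 0.05, and the groups overlapped in all 14. Their median log2 fold change was 0.04. Tchh was at 215 to 673 FPKM in Model and 170 to 846 FPKM in FJDHF-M, with a log2 fold change of -0.05, and Tchhl1 at 30.2 to 94.2 and 20.8 to 120 FPKM, with -0.21. Over the libraries their r with the mean log2 level of the 9 keratins was 0.590 for Prdm1 to 0.983 for Padi3, with a median of 0.798, while the median over all other genes tested was -0.00072. Gata3, which is needed for the inner root sheath to form, was at 3.79 to 16.6 FPKM and gave r = 0.706.

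Hair shaft keratins also ran with the inner root sheath keratins. Of the 15 genes listed, Krt85 was not found by that name in the FPKM table, so levels and sums of this list leave it out. Of the 14 genes tested, 10 were higher and 4 lower in FJDHF-M, none had an unadjusted p under 0.05, and the median log2 fold change was 0.50. This direction rested on MR3, without which 12 of the 14 were lower and the median was -0.52. The mean log2 level of the list was 4.57 in Model and 4.56 in FJDHF-M, and 4.05 in FJDHF-M without MR3. Krt33a and Krt83, which are keratins of the shaft's cortex and had the highest mean FPKM of the list, gave log2 fold changes of 0.47 and 0.91, and Krt83 ran from 2.95 to 179 FPKM in FJDHF-M. The summed inner root sheath keratins exceeded the sum of these 14 hair shaft keratins, without Krt85, in all 9 libraries. The ratio was 5.37, 6.68, 4.83 and 5.98 in Model and 4.03, 3.05, 4.595, 7.39 and 7.48 in FJDHF-M. MR3, the library with the most inner root sheath keratin RNA, had the lowest of these ratios, and MR5, with the least, had the highest. Other libraries did not follow that order. MR4_5, with a sum of 2504 FPKM, had a ratio of 7.39, and MR1, with 595 FPKM, had 4.03. With the mean hair shaft keratin level as a covariate, all 9 inner root sheath and companion layer keratins had negative log2 fold changes, from -0.01 to -0.56, and the smallest unadjusted p in edgeR was 0.214.

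Keratins of other layers followed less. The r of a gene with the mean of the 9 keratins had a median of 0.396 over the 8 outer root sheath and bulge keratins and of 0.07 over the 6 keratins of the epidermis between follicles. Krt5 and Krt14 of the basal layer ran from 238 to 1419 and from 112 to 1287 FPKM, with log2 fold changes of 0.15 and 0.20, and none of the 8 had an unadjusted p under 0.05. In the epidermal list 3 of 6 had an unadjusted p under 0.05 in edgeR, which 1.57% of all genes tested had, namely Krt10 with a log2 fold change of 1.23 and Krt1 with 1.48, both of the differentiating layers, and Krt77 with -2.10, all with an adjusted p of 1.0. Krt10 lies next to Krt28 on chromosome 11 and gave r = -0.06 with the 9 keratins. The keratin genes that interrupt the type II cluster gave r = 0.682 for Krt5, 0.379 for Krt6a and -0.04 for Krt6b. Krt90, next to Krt75, was at 0.359 to 2.36 FPKM and gave r = 0.878. Krt24 on the outer side of Krt25 was at 0.238 to 2.01 FPKM with r = 0.149, and Krt2 beyond Krt73 at 0.0597 to 0.247 FPKM with r = 0.486. The genes at the borders thus ranged from one close to the cluster's profile to several unlike it.

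**Figure D5:**
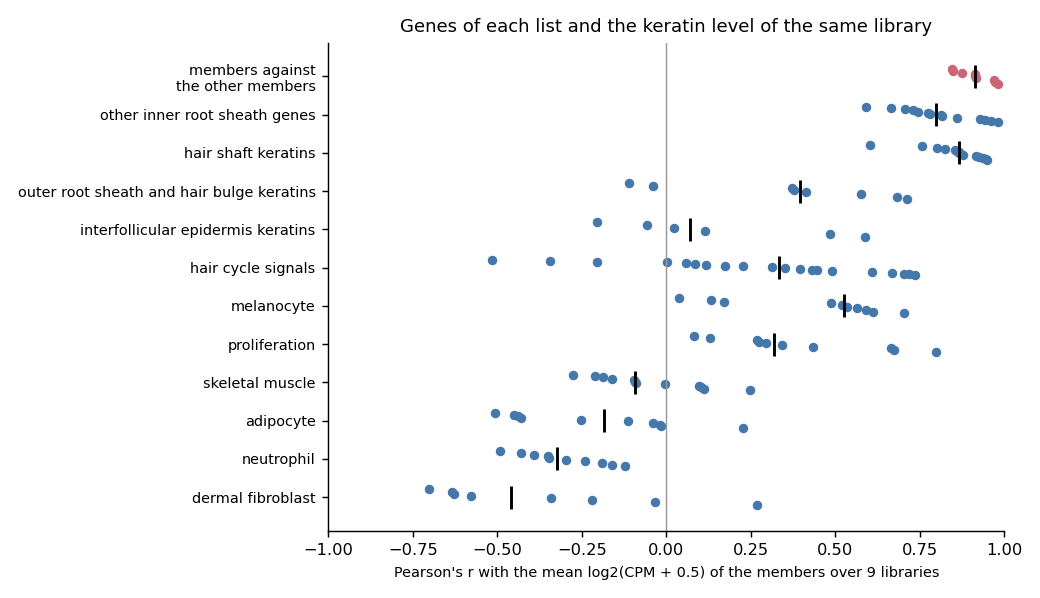
Pearson's r over the 9 libraries between each gene of 11 lists and the mean log2(CPM + 0.5) of the 9 keratins, with 1 dot a gene and a bar at the list's median. The top row gives each keratin against the mean of the other 8, from 0.847 to 0.981, and hair shaft and other inner root sheath genes lie nearest to it, with medians of 0.866 and 0.798.

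Genes outside the follicle's inner layers gave the setting of these values. In the hair cycle list of 20 signals and regulators, 10 were higher and 10 lower, none had an unadjusted p under 0.05 and the median log2 fold change was -0.0025. Its most abundant genes, Sox9 of the follicle's stem cells and Fgf7 of the dermal papilla, had log2 fold changes of 0.27 and -0.65. Of 10 melanocyte genes 8 were higher, with Tyrp1 at 0.62 and Pmel at 0.84 and a list median of 0.65, and none had an unadjusted p under 0.05. The 10 proliferation genes had a median of -0.02, with Pcna at -0.01 and Mki67 at -0.14, and an r with the keratins of 0.08 to 0.799. The 12 skeletal muscle genes, led by Tnnt3 and Acta1, had mean log2 levels of 5.28 to 10.3 in Model and 6.74 to 9.45 in FJDHF-M, and a median r of -0.09 with the keratins. The 10 adipocyte genes, led by Scd1 and Fabp4, had a median log2 fold change of 0.19 and a median r of -0.18. All 10 neutrophil genes were lower in FJDHF-M with a median of -1.02, but the Model library MXL12 was highest for 9 of them, and without it 5 were lower and 5 higher with a median of 0.13. Their mean log2 level was lower in the Model libraries MXL1 (2.06) and MXL3_4 (2.27) than in any FJDHF-M library (2.47 to 3.31). Of these genes Mmp8, a collagenase of neutrophil granules, had an unadjusted p of 0.00496 in edgeR and groups that did not overlap, while S100a9 and Il1r2 gave -1.16 and -0.78. All 8 fibroblast genes were lower with a median of -0.42, of which Col3a1 at -0.57 had an unadjusted p of 0.0416 in edgeR and Col1a1 gave -0.43. The adjusted p was 1.0 for every gene of these lists. Some of the lists still followed the keratins in part or ran against them. The median r of a gene with the keratins was 0.527 for melanocyte, 0.332 for hair cycle and 0.32 for proliferation genes. It was -0.322 for neutrophil and -0.459 for fibroblast genes. The mean log2 level of the hair cycle list gave r = 0.761. No list from melanocytes to fibroblasts had a gene with r of at least 0.9 with the keratins.

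The genes whose profile was most like that of the keratins were sought among all 20808 other genes tested. Over the 9 libraries 97 of them (0.466%) had r of at least 0.9 with the mean log2 level of the 9 keratins. The 10 highest were Padi3, Tgm6, Rhpn2, Slc3a2, Ggt1, Bop1, Foxo3, Tchh, Srms and E2f2, with r from 0.983 down to 0.958. Padi3 converts arginine to citrulline in trichohyalin, Tgm6 is a transglutaminase, and Slc3a2 is the heavy chain of amino acid transporters at the cell surface. Their levels ranged from a mean of 0.948 FPKM for Rhpn2 to 440.0 FPKM for Tchh, and their log2 fold changes from -0.30 to 0.10. The 3 lowest were Slc7a2, a transporter of cationic amino acids, with r = -0.989, Dock10 with -0.965 and Adam22 with -0.961. Such values are the extremes of many genes over few libraries, with shared depth and scaling, and are given as a description.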

How the data were processed

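Per the labels, HISAT, StringTie and DESeq2 and the build mm10 were used upstream, with no versions given. The authors deposited whole-number read counts per gene, not normalized, for 55401 genes, and FPKM values, which the authors scaled for length and depth, for 34637 genes. Libraries were strand-specific, poly(A)-selected and read from both ends, and whether counting used strand is not given in the sources used here. The repeated counts in the FPKM table were identical to the count table in all 9 columns.

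Counts were analysed with edgeR 4.0.16 in R 4.3.3 (filterByExpr, TMM, quasi-likelihood test, Benjamini-Hochberg adjustment over all 20817 genes, no covariate). Single levels were compared on log2(CPM + 0.5) with two-sided exact permutation tests in Python 3.11.15. Ratios and shares were computed from FPKM. The tests planned for them are not reported, since they are scores over the chosen genes. The 36 library pairs differed beyond counting noise. A count of 3 or fewer was taken as the floor, 0.0377 to 0.0402 CPM and allows for counting error alone, as reads copied by PCR are not separate molecules. On simulated counts, edgeR recovered 122 of 200 changed genes with 5 false calls among 127. The planted changes were larger than 2-fold, and calls used the adjusted p alone. Every simulated gene had the same dispersion, which was not matched to that of the keratins, so the recovery does not describe them. How many changes of 2-fold or less would be found was not tested. Alternatives were DESeq2 1.42.0, limma 3.58.1 on log2(FPKM + 1), other filters, covariates and pseudocounts, each library left out, and a replicate block.

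The named genes were the 9 keratins, the 10 genes most and 3 least like them in profile, genes of the lists with the 2 highest mean FPKM or an unadjusted p under 0.05, and cluster neighbours. The keratins, lists and motifs were chosen with earlier results of these data known.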

Additional observations from a re-analysis of the deposited data

Results flagged for a closer look

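In MR3_4 the share of Krt26 in the summed inner root sheath keratin FPKM was 0.898%, beside 2.37% to 3.27% in the other 4 FJDHF-M libraries. Its gap to the nearest library was 0.751 of the group's range on the log2 scale, above the critical value of 0.71 for 5 samples in Dixon's test. The share of Krt74 in MR3_4 was 0.0660%, beside 0.207% to 0.252% in the others, with a gap of 0.852 of the range. In all, 42 groups of values were examined (9 levels, 8 shares, 3 ratios and total counts, in each of the 2 groups), and 2 passed where chance gives about 1 in 20, or 2.1. Both come from 1 library and share a denominator. Krt75 per summed inner root sheath keratin was also lowest in MR3_4 but did not pass.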

How the results depend on the processing

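In none of the 17 other fits did a keratin reach an unadjusted p under 0.05, and DESeq2's Wald test called 2 genes of all where edgeR called 0. At a 2-fold change and an unadjusted p under 0.05, 189 genes passed in all, against 46 with limma on log2(FPKM + 1), 772 without a filter on low counts, 124 with at least 10 counts in every library and 140 to 431 without 1 library. The sign of the log2 fold change, which was within 1 SE of 0 in each keratin, changed in several fits. With limma on log2(FPKM + 1) it was -0.11 for Krt27, -0.12 for Krt71, -0.10 for Krt72 and -0.069 for Krt73. With the hair shaft keratin level as covariate it was -0.13, -0.066, -0.098 and -0.040 for the same genes and -0.0087 for Krt28.

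Without 1 library the log2 fold change ranged from -0.63 (without MR3) to 0.27 (without MXL1) for Krt25, from -0.78 to 0.16 for Krt26, from -0.47 to 0.54 for Krt27, from -0.33 to 0.68 for Krt28, from -0.27 to 0.42 for Krt71, from -0.45 to 0.60 for Krt72, from -0.30 to 0.55 for Krt73 and from -0.91 to 0.19 for Krt74. The lowest value came without MR3 in all 8. Krt75 stayed between -1.10 and -0.25. The difference in mean log2(CPM + 0.5) was negative for all 9, also for the 5 genes with positive edgeR values. It ranged without 1 library from -0.57 to 0.29 for Krt27, from -0.37 to 0.37 for Krt28, from -0.51 to 0.21 for Krt71, from -0.55 to 0.23 for Krt72 and from -0.47 to 0.33 for Krt73. For Krt28 it was 0.011 on log2(FPKM + 1), 0.0065 on CPM without TMM and 0.45 in ranks, and for Krt71 it was 0.0 in ranks. Differences in ratios and shares moved by less than the SD within groups, pooled over both groups, under each of the alternatives tried. Beside a single group's SD some moved further, such as the Krt26 share, from -0.35 to -0.04 without MR3_4 with a Model SD of 0.29, and the Krt72 share, from 0.04 to 0.20 without MXL3_4 with an FJDHF-M SD of 0.13. The cause of these changes was not tested.

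The codes MXL1 and MR1, MXL_3 and MR3, and MXL3_4 and MR3_4 share a number. Deviations from the group means correlated at 0.225, 0.118 and -0.219 in these pairs. Pairs with unlike numbers were not compared, so these values cannot show whether the numbers pair libraries. The main fit treated the libraries as unpaired. A fit of these 6 libraries with a replicate block gave negative values for all 9 keratins, namely -0.46 for Krt25, -0.96 for Krt26, -0.088 for Krt27, -0.089 for Krt28, -0.30 for Krt71, -0.34 for Krt72, -0.045 for Krt73, -1.22 for Krt74 and -1.32 for Krt75, and 174 genes of all then passed at the unadjusted p.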
